A study of Mus musculus with 12 samples.

Results

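Potassium channel genes were taken from the UMI counts of photo-isolation chemistry (PIC) on the adult mouse hippocampus. A gene was a member when its symbol began with Kcn, and the host and antisense transcripts whose symbols end in ot1 or os were left out. Of 96 such genes 3 were left out by this rule, which gave 93 members among 32546 genes, 92 of them protein-coding and 1 the long non-coding RNA Kcnmb4os2. PIC couples a caged, barcoded primer to reverse transcription in a tissue section, and light removes the cage in the irradiated region so that only cDNA from there enters the library. Sections came from male ICR mice of 8 weeks, and no genetic change or drug is named for any group. The 4 histological conditions were fresh-frozen sections treated for 5 min with 0.1 N HCl, fresh-frozen sections heated in TE at 70 °C for 1 h, frozen sections fixed in 4% paraformaldehyde (PFA) with the same TE step, and PFA-fixed paraffin sections with that TE step. In each condition CA1, CA3 and the dentate gyrus (DG) were irradiated in 4 replicates, which makes 48 replicates in 12 libraries.

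Potassium channels let potassium ions leave or enter a cell and set its resting potential, the shape of its action potentials and its firing pattern. Most are built from pore-forming alpha subunits that meet around 1 central pore, joined by auxiliary subunits that steer traffic and gating. In the hippocampus they are known for dampening dendritic excitation and for allowing fast repetitive firing, and in astrocytes for taking up potassium. By the family that the symbol names, the members were 29 voltage-gated alpha subunits and 10 silent or modulatory subunits that work only in complex with others. A further 8 were grouped by kinship as calcium- or sodium-activated channels, whether or not these ions open each of them. The rest were 15 inward rectifiers, 13 two-pore channels and 18 auxiliary genes, with the long non-coding RNA counted among the last.

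The pore of these channels is lined by a short selectivity filter, which is the sequence that makes a member a potassium channel, and it is shown for 7 members on which the results below turn. The coding sequences of GENCODE M21 on GRCm38 were translated and searched for threonine or serine, a further residue, glycine, tyrosine or phenylalanine, and glycine. In every match the further residue was valine, isoleucine or leucine. Filters with another residue there may be missing from the counts that follow. This motif stood in 73 of 75 alpha or modulatory genes and in 0 of 17 translated auxiliary genes. In the first copy of the motif the aromatic residue was tyrosine in 57 genes and phenylalanine in 16, and in all 8 Kcnh genes it was phenylalanine. A second copy was found in 10 of 13 two-pore genes, each of which codes for a pair of pore loops, and had phenylalanine in all 10. The search gave no match in Kcnk1 and Kcnk7, which does not show that they lack a filter. In the lines below the 15 capitals mark the codons of the motif on the coding strand, with 6 bases on each side.
Kcnh7: ctaaccAGTGTAGGATTTGGAaatgtg
Kcnt2: ttttctACTGTGGGCTTTGGGgatgtc
Kcnc2: atgactACCTTAGGTTACGGGgatatg
Kcnc4: atgacaACGCTTGGCTATGGGgacatg
Kcna1: atgaccACTGTGGGATACGGTgacatg
Kcnj3: gaggccACCATCGGCTATGGCtaccgc
Kcnj6: gaaaccACCATCGGTTATGGCtaccgg
Each of these 7 motifs lay in 1 coding exon. On GRCm38 the capitals of Kcnh7 were at chr2:62777343-62777357 on the minus strand and those of Kcnt2 at chr1:140425278-140425292 on the plus strand. Those of Kcnc2 were at chr10:112456229-112456243 on the plus strand, those of Kcnc4 at chr3:107447799-107447813 on the minus strand and those of Kcna1 at chr6:126642228-126642242 on the minus strand. The inward rectifiers Kcnj3 and Kcnj6 had theirs at chr2:55437627-55437641 on the plus strand and at chr16:94832777-94832791 on the minus strand. In the voltage-gated channel Kcnd3 the codons of the motif were split between 2 exons.

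Totals per replicate ran from 35932 to 1111804 UMIs, with medians of 731106 in HCl-treated fresh-frozen, 629964 in TE-treated fresh-frozen, 122520 in fixed frozen and 67528 in paraffin sections. The 4 replicates of a region and condition shared 1 library, so that within a condition region and library cannot be told apart. The summed level of 6 CA1 markers had library means of 475 to 1128 CPM (UMIs scaled to the total of the replicate) in CA1 and 73.3 to 286 elsewhere. For 7 CA3 markers the means were 418 to 630 CPM in CA3 and 41.7 to 312 elsewhere, and for 7 DG granule cell markers they were 1058 to 2352 CPM in DG and 187 to 402 elsewhere. In sum the libraries so carried the markers of their labels, while the summed level of 5 CA2 markers was highest in the DG library of all 4 conditions. Singly the CA2 markers did not all follow the sum. Of 4 that were fitted, 1 was called higher and 1 lower in CA1 than in DG, and 1 lower in CA3 than in DG. Of 6 CA1 markers 5 were called higher and 1 lower in CA1, against CA3 and against DG alike. Of 7 CA3 markers 6 were called higher in CA3 than in CA1 and 5 higher than in DG. All 7 DG granule cell markers were called higher in DG than in CA1 and than in CA3.

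The members held 116330 UMIs in all. Each of the 93 had at least 1 UMI, and 15 had one in all 48 replicates. Among these were Kcna1, Kcna2, Kcnab1, Kcnab2, Kcnc1, Kcnc2, Kcnd2, Kcnip2, Kcnip4, Kcnj10, Kcnk1, Kcnma1, Kcnn2 and Kcnq3. They span Kv1, Kv3 and Kv4 channels with their Kv beta and KChIP partners, the large- and small-conductance calcium-activated channels, a KCNQ channel, an inward rectifier and a two-pore channel. At the other end 17 members had 1 to 9 UMIs in the whole table and entered no test across conditions. They were Kcna3, Kcna7, Kcne1, Kcne3, Kcng3, Kcnh6, Kcnj1, Kcnj13, Kcnj15, Kcnk5, Kcnk7, Kcnk12, Kcnk16, Kcnk18, Kcnmb3, Kcnn4 and Kcnv2. A UMI count from the 3′ end is not a level per length, so that levels are not compared between genes here.

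Members detected per replicate had a median of 73 (lowest 56, highest 76) after HCl, 70.5 (65 to 73) after TE, 49 (41 to 59) in fixed frozen and 47.5 (34 to 63) in paraffin sections. Most of this gap went with depth. At 35932 UMIs, the smallest total, the expected number of members had a median of 43.6, 41.6, 38.3 and 38.3 in the same order. The share of UMIs that fell on members was also lower after fixation. Its median was 6789 CPM after HCl (5273 to 7777), 6208 after TE (5629 to 7271), 4875 in fixed frozen (4013 to 5448) and 4107 in paraffin sections (2903 to 4777). Every fresh-frozen replicate but 1 after HCl stood above every fixed replicate in this share.

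**Figure D1:**
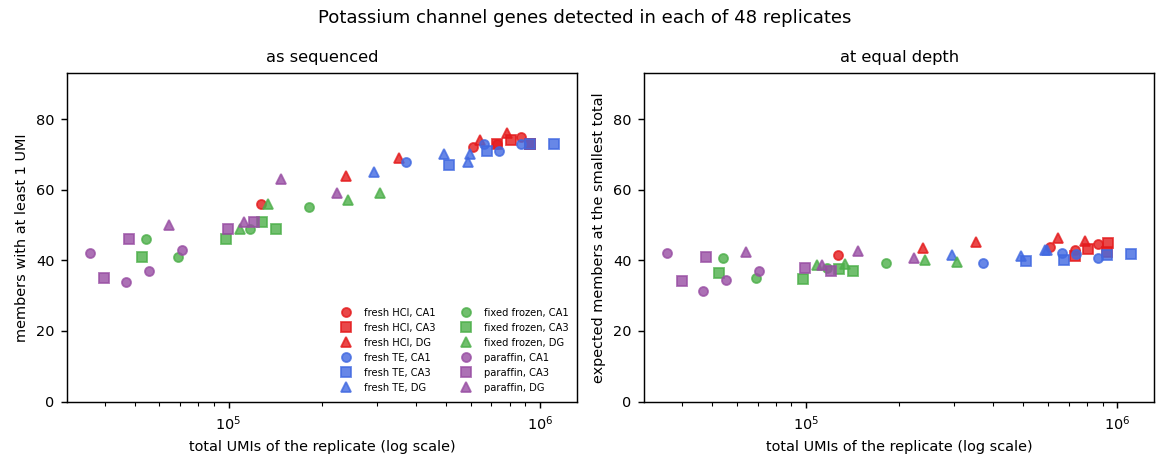
The left panel plots the number of potassium channel genes with at least 1 UMI in each of 48 replicates (of 93) against the replicate's total UMIs on a log axis, and the right panel the number expected at 35932 UMIs. Detection climbed with depth from 34 to 76 members, and at 1 depth the medians of the conditions lay between 38.3 and 43.6.

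The first question was which members differed between CA1, CA3 and DG. A fit with edgeR over all 48 replicates, with condition as a covariate, called a member at a Benjamini-Hochberg adjusted p under 0.05 over all genes tested. In CA1 over DG it called 29 of 76 fitted members, 12 higher and 17 lower, where 18.0% of all 18884 fitted genes were called, 7.86% higher and 10.2% lower. In CA3 over DG 28 were called, 8 higher and 20 lower, against 14.3% of all genes, 6.15% higher and 8.10% lower. In CA1 over CA3 27 were called, 13 higher and 14 lower, against 9.25%, 4.38% higher and 4.86% lower. The median log2 difference of the fitted members was −0.26, −0.21 and 0.03 in these comparisons, beside −0.01, −0.03 and 0.02 over all genes. In all 46 members were called in at least 1 pair of regions, 9 of them in all 3 pairs, and 30 in none. No share of all genes is set beside these 3 counts, so that they only describe the members. In such pieces of tissue fewer cells of a type and less RNA per cell cannot be told apart.

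Since each comparison sets 4 libraries against 4, it was repeated without each of the 12 libraries in turn. The number of calls ran from 21 to 31 in CA1 over DG, lowest without the HCl-treated DG library, from 21 to 32 in CA3 over DG and from 22 to 27 in CA1 over CA3, both lowest without the HCl-treated CA3 library. Calls that held in every such fit numbered 17 of 29 in CA1 over DG, 15 of 28 in CA3 over DG and 19 of 27 in CA1 over CA3. Counts of calls that held, here and below, have no share of all genes beside them. Calls that held come first in each family below. A named member that lost its call is given with the libraries, or their number, and in most cases the value without them. With the 4 replicates of a library summed to 1 sample, 20 of 29, 21 of 28 and 23 of 27 calls were made again, all with the same sign.

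**Figure D2:**
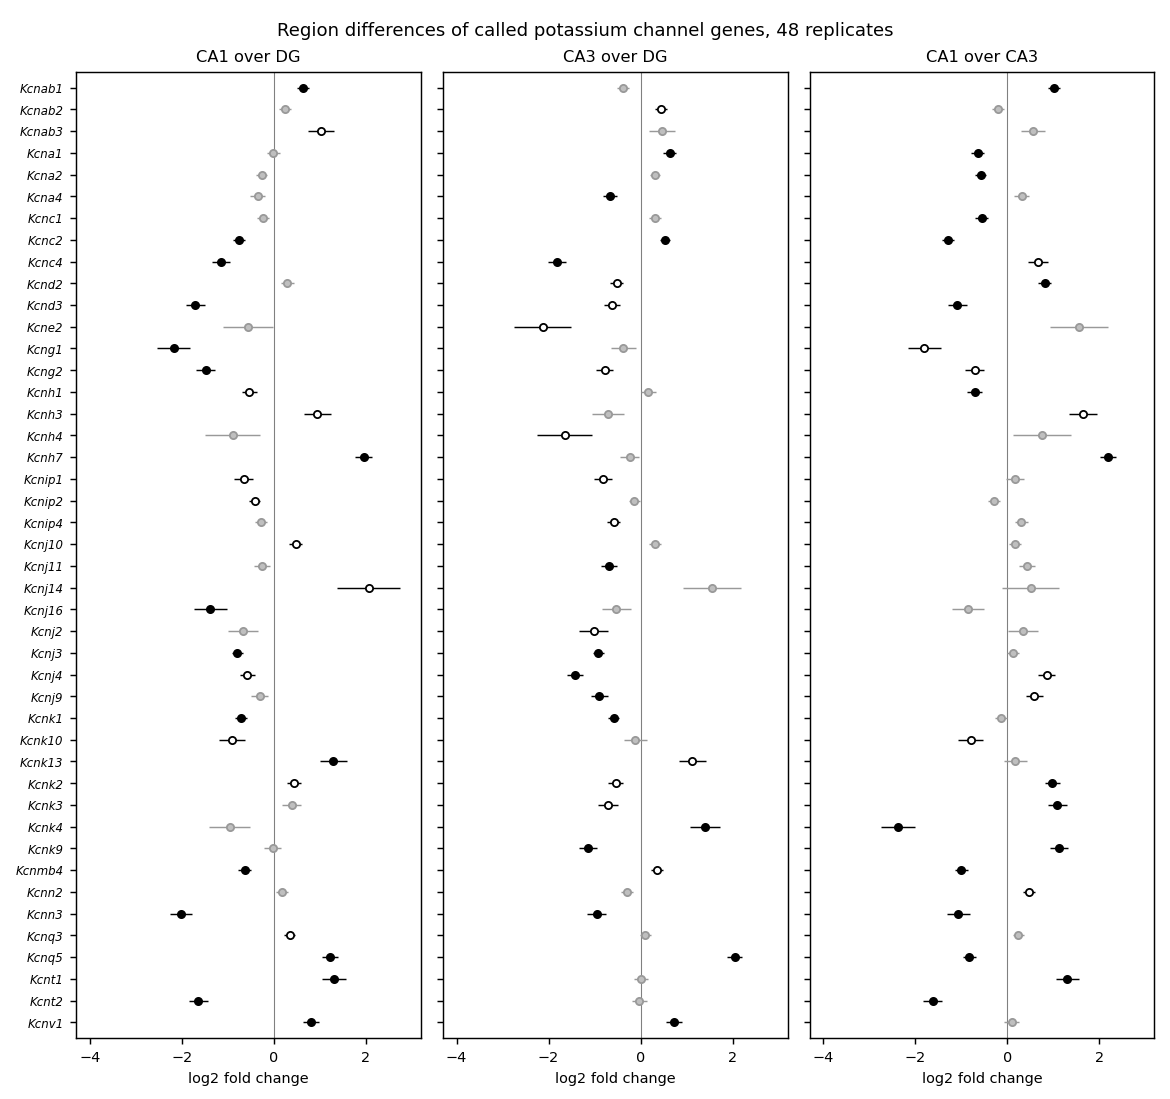
Log2 fold changes with standard errors from the edgeR fit over 48 replicates for 44 of the 46 members called in at least 1 pair of regions. Filled points were called and held without any 1 library, open points were called but not without at least 1 library, and grey points were not called. Kcnh7 stood far to the CA1 side, Kcnq5 away from DG and Kcnn3 and Kcnd3 away from CA1.

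Kcnh7 codes for an ERG-type voltage-gated channel, whose slow closing is known to damp repetitive firing, and lies at chr2:62693414-63184287 on the minus strand. It was higher in CA1 than in both other regions. In HCl-treated sections its levels were 157, 251, 269 and 86.4 CPM in CA1, 23.6, 73.9, 43.2 and 34.2 CPM in CA3 and 25.5, 54.3, 57.1 and 58.6 CPM in DG. After TE they were 189, 342, 194 and 229 CPM in CA1, 32.4, 53.1, 96.5 and 37.1 in CA3 and 30.5, 52.8, 60.4 and 44.2 in DG. The CA1 replicates lay above all others in both fresh-frozen conditions. In fixed frozen sections CA1 had 101, 138, 188 and 111 CPM, CA3 10.2, 14.1, 15.7 and 0, and DG 14.9, 42.3, 66.0 and 27.5. Paraffin sections gave 235, 162, 98.9 and 55.7 CPM in CA1, 49.6, 10.1, 0 and 0 in CA3 and 40.7, 71.1, 62.8 and 31.1 in DG. There 1 CA1 replicate fell among those of DG, while CA1 stayed above CA3. Over all conditions Kcnh7 was higher in CA1 than in CA3 by 2.20 ± 0.18 (log2 ± SE, n = 16 replicates each, edgeR adjusted p = 7.3e-20) and than in DG by 1.96 ± 0.18 (edgeR adjusted p = 8.5e-17). CA3 and DG differed by −0.24, which was not called.

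Within single conditions the excess of Kcnh7 in CA1 over CA3 was called in all 4, by 2.16, 2.07, 3.41 and 2.57 in the order HCl, TE, fixed frozen and paraffin. Against DG the log2 differences were 2.04, 2.35, 1.67 and 1.30, and the last was not called (edgeR adjusted p = 0.0707). Other Kcnh genes were less steady. Kcnh1, an EAG channel, was lower in CA1 than in CA3 (log2 difference −0.71 ± 0.16, edgeR adjusted p = 0.0007). Its call in CA1 over DG (−0.54) was lost without the HCl-treated DG, TE-treated DG or fixed frozen CA1 library (−0.55 to −0.43). Kcnh3, an ELK channel, was higher in CA1 than in CA3 (log2 difference 1.65 ± 0.31), but the call was lost without the HCl-treated CA1 or CA3 library, with 0.96 to 1.03 in their absence. Its excess over DG (0.95) also went without the HCl-treated CA1 or DG library, which left 0.33 to 0.74. Kcnh4, with 21 UMIs in all, was called lower in CA3 than in DG (−1.65), and the call was lost without any of 11 of the 12 libraries (−1.85 to −1.53).

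Kcnq5, a KCNQ channel of the family that carries the M-current, a slow brake on firing, had the largest called excess of a member in CA3 over DG. It lies at chr1:21398403-21961942 on the minus strand. In HCl-treated sections it had 123, 102, 114 and 86.4 CPM in CA1, 285, 172, 169 and 237 in CA3 and 88.0, 21.7, 49.5 and 71.2 in DG. After TE the values were 75.8, 64.8, 101 and 108 CPM in CA1, 196, 109, 127 and 176 in CA3 and 63.0, 20.4, 50.3 and 27.2 in DG. In both CA3 lay above CA1, and CA1 above DG except that the lowest CA1 replicate after HCl stood just under the highest of DG. Fixed frozen sections had 145, 94.0, 162 and 92.2 CPM in CA1, 306, 191, 188 and 189 in CA3 and 74.5, 26.0, 37.1 and 36.7 in DG. Paraffin sections had 42.7, 144, 113 and 167 CPM in CA1, 116, 121, 62.7 and 200 in CA3 and 33.9, 17.8, 31.4 and 0 in DG. CA3 lay above DG without overlap in all 4 conditions, and CA1 above DG in all but HCl, whereas CA1 and CA3 overlapped in paraffin. CA3 over DG was 2.05 ± 0.16 on the log2 scale (edgeR adjusted p = 7.7e-21), CA1 over DG 1.22 ± 0.17 (edgeR adjusted p = 5.8e-09) and CA1 over CA3 −0.82 ± 0.15 (edgeR adjusted p = 6.3e-06). Kcnq5 was called in every condition against DG, and in CA3 over DG the log2 differences were 2.06, 1.92, 2.44 and 2.28.

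Kcnq3, which forms M-channels with other KCNQ subunits, differed little between regions. Its lowest, median and highest level was 198, 489 and 646 CPM in CA1, 152, 392 and 624 CPM in CA3 and 210, 371 and 430 CPM in DG. Its excess in CA1 over DG was 0.34 on the log2 scale, and the call was lost without any of 4 libraries, with 0.26 to 0.30 left. Of 5 fitted Kcnq genes 2, Kcnq5 and Kcnq3, were called between CA1 and DG, both higher in CA1, where 7.86% of all genes were called higher.

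Kcnn3 and Kcnd3 were low in CA1 in every condition. Kcnn3 codes for a small-conductance calcium-activated (SK) channel, of the kind that carries afterhyperpolarizations, and lies at chr3:89520164-89675132 on the plus strand. In HCl-treated sections it had 10.9, 14.8, 15.0 and 7.86 CPM in CA1, 20.4, 21.4, 25.9 and 21.9 in CA3 and 28.4, 32.6, 59.7 and 33.5 in DG. TE-treated sections gave 8.04, 9.04, 10.8 and 13.5 CPM in CA1, 23.6, 19.8, 28.9 and 15.6 in CA3 and 34.6, 40.9, 36.9 and 50.9 in DG. In both the 3 regions followed each other without overlap from CA1 to CA3 to DG. In fixed frozen and paraffin sections no CA1 replicate had a UMI of Kcnn3, while the 4 DG replicates had 12.4 to 22.8 CPM in the first and 17.8 to 77.8 CPM in the second. Taking 3 counts in the 4 CA1 replicates together as the floor, DG was at least 2.66-fold higher in fixed frozen and at least 3.06-fold higher in paraffin sections. Over all conditions the log2 difference of Kcnn3 was −2.02 ± 0.24 in CA1 over DG (edgeR adjusted p = 1.5e-11) and −1.06 ± 0.25 in CA1 over CA3 (edgeR adjusted p = 0.0012). CA3 lay between, at −0.95 ± 0.20 against DG (edgeR adjusted p = 0.00018).

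Kcnd3 codes for a Kv4 channel, of the kind that passes the fast transient A-current in dendrites, and lies at chr3:105452330-105674002 on the plus strand. HCl-treated sections had 47.9, 31.1, 25.3 and 15.7 CPM in CA1, 53.6, 60.0, 49.4 and 53.3 in CA3 and 53.9, 86.9, 73.6 and 83.7 in DG. After TE CA1 had 24.1, 13.6, 16.2 and 5.40 CPM, CA3 32.4, 27.9, 33.2 and 52.8 and DG 42.7, 56.2, 35.2 and 50.9. Fixed frozen sections had 0, 5.53, 0 and 55.3 CPM in CA1, 50.9, 91.8, 62.6 and 56.8 in CA3 and 74.5, 111, 128 and 101 in DG. In each of these CA1 stood below DG without overlap, and 1 CA1 replicate of fixed frozen sections lay far above the other 3. In paraffin sections CA1 had 0, 0, 14.1 and 0 CPM, CA3 41.4, 10.1, 0 and 50.1 and DG 33.9, 80.0, 71.7 and 156. Over all conditions the log2 difference of Kcnd3 was −1.70 ± 0.21 in CA1 over DG (edgeR adjusted p = 2.3e-11) and −1.09 ± 0.21 in CA1 over CA3 (edgeR adjusted p = 4.0e-05). The call of CA1 against DG was made in all 4 conditions on their own. CA3 against DG was −0.62 ± 0.18, and this call was lost without the HCl-treated CA3, the fixed frozen DG or the paraffin DG library (−0.57 to −0.43).

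**Figure D3:**
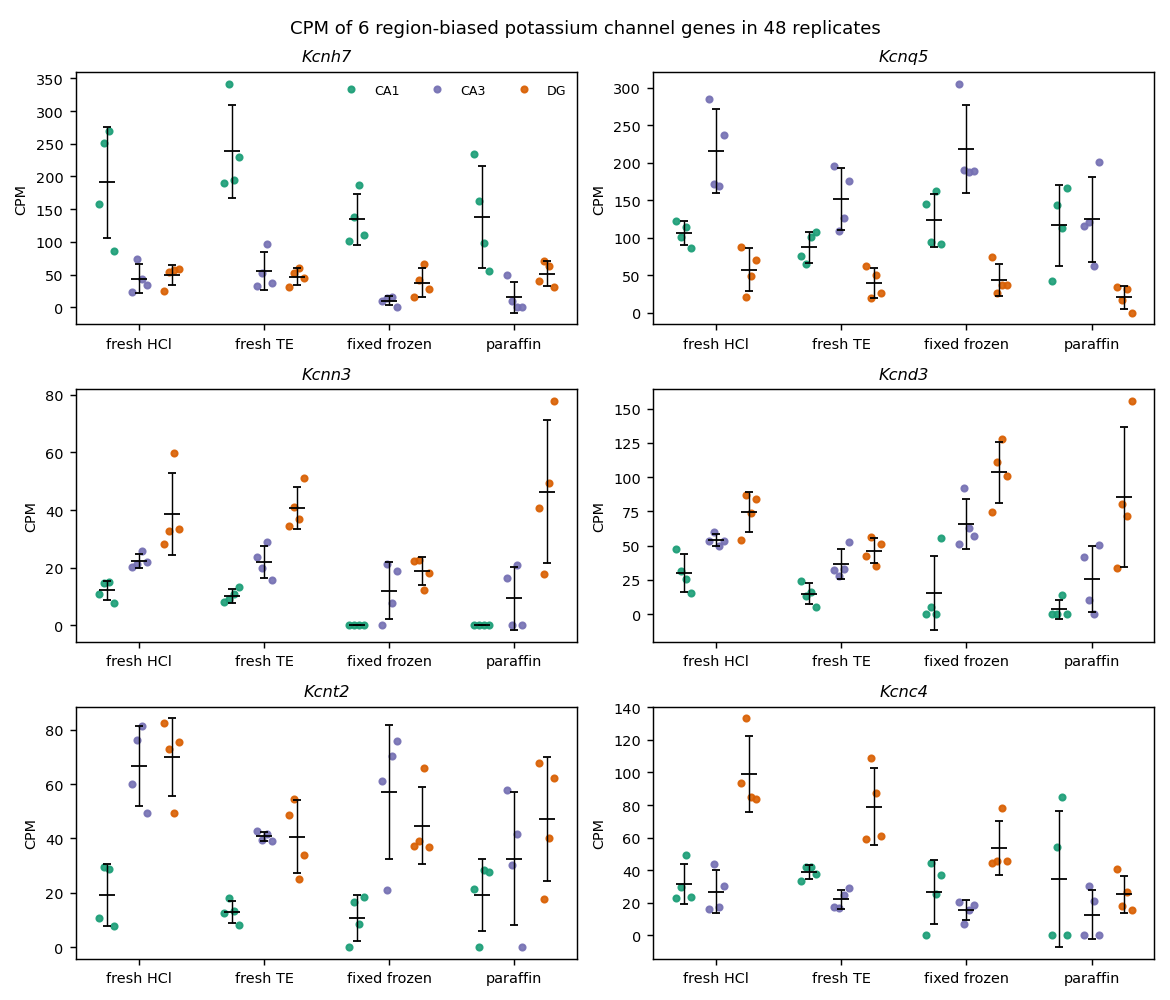
Levels in CPM of Kcnh7, Kcnq5, Kcnn3, Kcnd3, Kcnt2 and Kcnc4 in the 4 replicates of each region and condition (points), with the mean and SD of the 4. Kcnh7 was highest in CA1, Kcnq5 lowest in DG, and Kcnn3, Kcnd3 and Kcnt2 lowest in CA1, while Kcnc4 was highest in DG in HCl, TE and fixed frozen sections.

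The other Kv4 channel with many UMIs, Kcnd2, ran another way. Its lowest, median and highest level was 55.7, 257 and 539 CPM in CA1, 20.1, 120 and 302 CPM in CA3 and 88.9, 178 and 346 CPM in DG. It was higher in CA1 than in CA3 (log2 difference 0.82 ± 0.15, edgeR adjusted p = 7.5e-06), opposite in sign to Kcnd3. Its lower level in CA3 than in DG (−0.52) was lost as a call without the fixed frozen CA3 or DG or the paraffin DG library (−0.44 to −0.35). Kv4 channels work with KChIP proteins, which bind calcium and raise their surface level. Kcnip1 was lower in CA3 than in DG (−0.82 ± 0.20), but not without the HCl-treated CA3 library (−0.60), and lower in CA1 than in DG (−0.66), but not without the HCl-treated DG, TE-treated CA1 or paraffin DG library. The same held for Kcnip2 in CA1 against DG (−0.42), which lost its call without the HCl-treated CA1 or DG library at −0.26 to −0.23, and for Kcnip4 in CA3 against DG (−0.59), which lost it without the fixed frozen CA3 library at −0.39. No KChIP gene had a call that held without every library in turn.

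Kv1 channels are known for keeping axons from firing in excess, and Kcna1 was higher in CA3 than in both other regions over all conditions. Kcna1, at chr6:126640397-126646384 on the minus strand, had 293, 305, 312 and 220 CPM in CA1, 487, 656, 579 and 354 in CA3 and 216, 382, 317 and 239 in DG after HCl. After TE it had 283, 377, 513 and 335 CPM in CA1, 451, 543, 609 and 494 in CA3 and 321, 440, 383 and 336 in DG. CA3 had the highest mean in both, although single replicates of CA1 and CA3 overlapped after TE. The log2 difference was −0.64 ± 0.14 in CA1 over CA3 (edgeR adjusted p = 0.00049) and 0.63 ± 0.14 in CA3 over DG (edgeR adjusted p = 0.00026), and CA1 and DG did not pass the test (−0.01). Kcna2, with a lowest, median and highest level of 113, 261 and 390 CPM in CA1, 171, 376 and 546 CPM in CA3 and 140, 287 and 427 CPM in DG, was also lower in CA1 than in CA3 (−0.58 ± 0.12, edgeR adjusted p = 0.0001). Its difference of 0.31 in CA3 over DG was not called (edgeR adjusted p = 0.0505). In paraffin sections the regions overlapped for both genes, and CA3 did not have the highest mean of either. Kcna4, an A-type Kv1 channel, differed from both and was lower in CA3 than in DG (−0.67 ± 0.15, edgeR adjusted p = 0.00069). Kcna6 was not called between regions over all conditions. Within single conditions it was called lower in CA1 than in CA3 in 1 of 4 and higher in CA3 than in DG in 1 of 4.

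The Kv beta subunit genes code for proteins that bind Kv1 channels from the cytosol. Kcnab1 was highest in CA1, with a lowest, median and highest level of 21.3, 242 and 492 CPM there, 70.4, 124 and 175 CPM in CA3 and 74.6, 133 and 280 CPM in DG. Its log2 difference was 1.02 ± 0.14 in CA1 over CA3 (edgeR adjusted p = 3.3e-09) and 0.63 ± 0.13 in CA1 over DG (edgeR adjusted p = 0.00014). Kcnab3 was called higher in CA1 than in DG (1.02), but not without the TE-treated CA1 or DG library (0.71). Kcnab2 was called higher in CA3 than in DG (0.44), as Kcna1 was, but not without the HCl-treated CA3, TE-treated DG or fixed frozen DG library (0.34 to 0.43).

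The Kv2 channel Kcnb2, a delayed rectifier, was not called between regions. Kv3 channels open and close fast and are best known from fast-firing cells. Kcnc2, at chr10:112271121-112467024 on the plus strand, had 167, 111, 129 and 86.4 CPM in CA1, 383, 312, 310 and 394 in CA3 and 307, 212, 242 and 134 in DG after HCl. After TE it had 148, 146, 126 and 146 CPM in CA1, 340, 289, 295 and 393 in CA3 and 216, 169, 171 and 245 in DG. CA3 lay above CA1 and DG without overlap in both. In fixed frozen sections CA1 had 57.9, 88.5, 68.2 and 55.3 CPM, CA3 183, 233, 227 and 246 and DG 194, 176, 161 and 119. In paraffin sections, with 85.4, 108, 70.6 and 83.5 CPM in CA1, 108, 90.7, 188 and 75.2 in CA3 and 81.4, 88.9, 134 and 140 in DG, the 3 regions overlapped. Kcnc2 was lower in CA1 than in CA3 by −1.29 ± 0.13 on the log2 scale (edgeR adjusted p = 3.4e-15) and than in DG by −0.76 ± 0.13 (edgeR adjusted p = 1.6e-06), and higher in CA3 than in DG by 0.53 ± 0.12 (edgeR adjusted p = 0.00033). With the replicates of each library summed, Kcnc2 was not called in CA3 over DG (edgeR adjusted p = 0.0546). Kcnc1, whose product can join Kcnc2 in 1 channel, was likewise lower in CA1 than in CA3 (−0.56 ± 0.13, edgeR adjusted p = 0.0015).

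Kcnc4, an A-type Kv3 channel at chr3:107438303-107459552 on the minus strand, was instead highest in DG. After HCl it had 23.3, 29.5, 49.5 and 23.6 CPM in CA1, 16.1, 43.9, 17.3 and 30.1 in CA3 and 93.7, 133, 85.0 and 83.7 in DG. TE-treated sections had 33.3, 42.2, 41.9 and 37.8 CPM in CA1, 17.7, 17.1, 24.7 and 29.3 in CA3 and 59.0, 109, 87.2 and 61.1 in DG. DG lay above the other regions without overlap here and in fixed frozen sections, where CA1 had 0, 44.2, 25.6 and 36.9 CPM, CA3 20.4, 7.06, 15.7 and 18.9 and DG 44.7, 45.6, 78.4 and 45.9. In paraffin sections this order was not seen, with 0, 54.0, 84.8 and 0 CPM in CA1, 0, 30.2, 20.9 and 0 in CA3 and 40.7, 17.8, 26.9 and 15.6 in DG. Over all conditions Kcnc4 differed by −1.82 ± 0.20 in CA3 over DG (edgeR adjusted p = 2.9e-13) and by −1.15 ± 0.19 in CA1 over DG (edgeR adjusted p = 1.0e-06), both as log2 differences. Its call in CA1 over CA3 (0.67) was lost without any of 6 libraries, at 0.55 to 0.75.

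The silent subunits of the Kv6 and Kv8 families form no channel of their own and modify Kv2 channels. Kcng1 had a lowest, median and highest level of 0, 4.35 and 18.0 CPM in CA1, 0, 14.5 and 41.8 CPM in CA3 and 0, 15.9 and 55.8 CPM in DG, and was lower in CA1 than in DG (log2 difference −2.17 ± 0.36, edgeR adjusted p = 6.8e-07). Against CA3 the difference of −1.80 was lost as a call without the HCl-treated CA1 library (−1.25). Kcng2 was likewise lower in CA1 than in DG (−1.48 ± 0.20, edgeR adjusted p = 1.9e-09), with a median of 16.8 CPM in CA1, 37.2 in CA3 and 52.3 in DG. Its calls in CA1 over CA3 (−0.70) and CA3 over DG (−0.78) were lost, the first without the HCl-treated CA1 or TE-treated CA3 library (−0.73 to −0.54) and the second without the HCl-treated CA3 or DG library (−0.47 to −0.45). Kcnv1 ran the other way. It was lower in DG than in CA1 and CA3, with log2 differences of 0.82 ± 0.18 in CA1 over DG (edgeR adjusted p = 0.0002) and 0.72 ± 0.17 in CA3 over DG (edgeR adjusted p = 0.00095), and medians of 52.4, 53.1 and 30.3 CPM in CA1, CA3 and DG. Kcnf1 and the Kv9 members Kcns2 and Kcns3 were not called between regions over all conditions. Within single conditions Kcnf1 was called lower in CA1 than in CA3 in 1 of 4.

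The sodium-activated channels Kcnt1 (Slack) and Kcnt2 (Slick) had opposite patterns in CA1. Kcnt2, at chr1:140246158-140612067 on the plus strand, had 10.9, 29.5, 28.8 and 7.86 CPM in CA1, 60.0, 76.0, 81.5 and 49.2 in CA3 and 82.3, 72.9, 49.5 and 75.4 in DG after HCl. TE-treated sections had 12.6, 18.1, 13.5 and 8.09 CPM in CA1, 42.7, 39.6, 41.8 and 39.1 in CA3 and 48.8, 54.5, 25.2 and 34.0 in DG. CA1 was lowest without overlap in both, and also in fixed frozen sections, where CA1 had 0, 16.6, 8.53 and 18.4 CPM, CA3 61.1, 21.2, 70.5 and 75.8 and DG 37.3, 39.1, 66.0 and 36.7. Paraffin sections, with 21.3, 0, 28.3 and 27.8 CPM in CA1, 57.9, 30.2, 41.8 and 0 in CA3 and 67.8, 17.8, 40.3 and 62.2 in DG, overlapped. Kcnt2 was lower in CA1 than in CA3 by −1.62 ± 0.20 (edgeR adjusted p = 1.6e-10) and than in DG by −1.65 ± 0.21 (edgeR adjusted p = 1.5e-10), while CA3 and DG differed by −0.02 as a log2 difference. Kcnt1 was higher in CA1 than in both, by 1.31 ± 0.24 over CA3 (edgeR adjusted p = 2.2e-05) and by 1.31 ± 0.26 over DG (edgeR adjusted p = 4.2e-05). Its lowest, median and highest level was 11.1, 31.9 and 64.0 CPM in CA1, 0, 13.2 and 41.8 CPM in CA3 and 0, 10.7 and 34.1 CPM in DG.

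Of the large-conductance calcium-activated (BK) channel, the alpha subunit Kcnma1 was not called between any regions over all conditions. Its log2 differences were −0.10 in CA1 over CA3, −0.32 in CA1 over DG and −0.22 in CA3 over DG. Within single conditions Kcnma1 was called lower in CA3 than in DG in 1 of 4. The neuronal BK beta subunit Kcnmb4, which slows the opening of BK channels, was lower in CA1 than in CA3 by −1.00 ± 0.14 (edgeR adjusted p = 1.3e-08) and than in DG by −0.64 ± 0.15 (edgeR adjusted p = 0.00043). Its median was 65.9 CPM in CA1, 121 in CA3 and 87.9 in DG. In CA3 over DG the 0.36 of Kcnmb4 was called at an edgeR adjusted p just under 0.05, and the call was lost without the HCl-treated CA3 library or either CA3 or DG library of TE-treated or fixed frozen sections (0.32 to 0.42). Among SK channels other than Kcnn3, Kcnn2 was called higher in CA1 than in CA3 (0.46), but not without any of 4 libraries (0.34 to 0.46), and Kcnn1 was not called.

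Inward rectifiers pass current more readily into the cell than out of it. Of 12 fitted Kcnj genes, 5 were called lower in CA3 than in DG, as were 8.10% of all genes. Kcnj3, Kcnj6 and Kcnj9 code for subunits of GIRK channels, which open on inhibitory G protein signals. Kcnj3, at chr2:55435970-55598145 on the plus strand, had 168, 211, 183 and 141 CPM in CA1, 194, 183, 156 and 142 in CA3 and 272, 335, 326 and 440 in DG after HCl. After TE it had 266, 294, 204 and 308 CPM in CA1, 252, 210, 180 and 279 in CA3 and 358, 375, 304 and 411 in DG. Fixed frozen sections had 203, 177, 153 and 221 CPM in CA1, 143, 184, 133 and 189 in CA3 and 276, 247, 359 and 358 in DG. CA3 lay below DG without overlap in these 3 conditions and in paraffin sections, where CA1 had 42.7, 18.0, 28.3 and 83.5 CPM, CA3 66.2, 70.5, 62.7 and 0 and DG 94.9, 124, 152 and 202. The log2 difference of Kcnj3 was −0.92 ± 0.12 in CA3 over DG (edgeR adjusted p = 6.0e-10) and −0.80 ± 0.12 in CA1 over DG (edgeR adjusted p = 8.1e-08), and CA1 and CA3 differed by 0.13, which was not called. Kcnj9 was lower in CA3 than in DG too (−0.90 ± 0.19, edgeR adjusted p = 0.00013), while its call in CA1 over CA3 (0.59) was lost without any of 4 libraries (0.28 to 0.72), and Kcnj6 was not called between regions.

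Kcnj4, a strong inward rectifier that helps hold the resting potential, was lowest in CA3. Its lowest, median and highest level was 0, 43.2 and 126 CPM in CA1, 7.83, 22.2 and 100 CPM in CA3 and 32.5, 62.8 and 136 CPM in DG. CA3 over DG was −1.43 ± 0.18 on the log2 scale (edgeR adjusted p = 9.7e-11). Its higher level in CA1 than in CA3 (0.85) was lost as a call without the HCl-treated CA3 library (0.66), and its lower level in CA1 than in DG (−0.57) without the HCl-treated CA1 or DG library (−0.44 to −0.32). Kcnj11, the pore subunit of ATP-sensitive channels, was also lower in CA3 than in DG (−0.68 ± 0.18, edgeR adjusted p = 0.0024). Kcnj2 was called in the same direction (−1.01), but not without the HCl-treated CA3, TE-treated DG or fixed frozen DG library (−0.89 to −0.63). Kcnj14 had 6 UMIs in CA1, 5 in CA3 and 0 in DG. Its call in CA1 over DG was lost without the HCl-treated DG, TE-treated DG, fixed frozen CA1 or fixed frozen DG library. Only 8 of the 12 fits that left out a library included Kcnj14, so that the others could give it no call.

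Kcnj10 and Kcnj16 code for the subunits of the inward rectifier known from astrocytes and oligodendrocytes. Kcnj10 was called higher in CA1 than in DG (log2 difference 0.47), but not without the HCl-treated CA1 or DG library (0.30 to 0.31). Kcnj16 was lower in CA1 than in DG (−1.38 ± 0.36, edgeR adjusted p = 0.0023), with a median of 0.675 CPM in CA1, 6.96 in CA3 and 12.4 in DG. Beside both genes, 8 of 8 oligodendrocyte markers were higher in CA1 than in DG, with a median log2 difference of 1.50. In CA3 over DG 8 of 8 were higher too, with a median of 1.10. Of 8 astrocyte markers 0 were called higher and 3 lower in CA1 than in DG, with a median of −0.38. The oligodendrocyte markers so ran opposite to Kcnj16, and the astrocyte markers opposite to Kcnj10. The part of these cells in either result was not tested.

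Two-pore channels leak potassium at rest. Of 8 fitted Kcnk genes, 5 were called between CA1 and CA3, as were 9.25% of all genes, and 4 of these calls held in every fit that left out a library. Kcnk2 and Kcnk9 were higher in CA1 than in CA3, by 0.98 ± 0.16 (edgeR adjusted p = 8.1e-07) and 1.12 ± 0.20 (edgeR adjusted p = 7.6e-06) on the log2 scale, and so was Kcnk3, by 1.09 ± 0.21 (edgeR adjusted p = 4.9e-05). Their products answer to stretch, acid or volatile anaesthetics. Kcnk9 was lower in CA3 than in DG as well (−1.15 ± 0.20, edgeR adjusted p = 2.6e-06), and CA1 and DG differed by −0.03.

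Kcnk4 codes for another stretch-gated two-pore channel. It had a lowest, median and highest level of 0, 0.574 and 8.53 CPM in CA1, 0, 16.9 and 56.8 CPM in CA3 and 0, 1.02 and 17.0 CPM in DG. It was higher in CA3 than in both other regions, with a log2 difference of −2.37 ± 0.37 in CA1 over CA3 (edgeR adjusted p = 2.6e-07) and 1.41 ± 0.33 in CA3 over DG (edgeR adjusted p = 0.00067). An exon of Kcnk4 overlaps one of Catsperz on the same strand, so that strand could not separate reads in the shared bases. How many UMIs of Kcnk4 this touches was not tested. Kcnk1, in which the motif search gave no match, was highest in DG, with a median of 142 CPM in CA1, 170 in CA3 and 236 in DG. Its log2 difference was −0.72 ± 0.12 in CA1 over DG (edgeR adjusted p = 1.6e-06) and −0.58 ± 0.12 in CA3 over DG (edgeR adjusted p = 6.2e-05). Kcnk13 was lowest in DG (1.30 ± 0.30 in CA1 over DG, edgeR adjusted p = 0.00065), beside the oligodendrocyte markers that were all lower there too. Of 7 microglia markers 0 were called in CA1 over DG (median log2 difference 0.36) and 0 in CA3 over DG (0.22). The part of either cell type in the difference of Kcnk13 was not tested. Kcnk10 was called lower in CA1 than in the other regions, but the call against CA3 (−0.80) was lost without any of 6 libraries, at −1.00 to −0.65, and that against DG (−0.91) without any of 4, at −0.94 to −0.75. Kcnk2 in CA1 over DG (0.44) was lost without the HCl-treated CA1, HCl-treated DG or TE-treated DG library, at 0.28 to 0.46. In CA3 over DG Kcnk2 (−0.54) was lost without any of 4 libraries, at −0.51 to −0.33, Kcnk3 (−0.70) without any of 5, at −0.79 to −0.41, and Kcnk13 (1.12) without the HCl-treated DG library, at 0.95.

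Of the KCNE genes, which code for small subunits with 1 membrane span, only Kcne2 was called between regions, lower in CA3 than in DG (log2 difference −2.13 ± 0.61, edgeR adjusted p = 0.0085). Its 41 UMIs were not spread evenly. Replicate 1 of HCl-treated CA1 held 10 of them, replicate 1 of paraffin DG 7, replicate 2 of HCl-treated DG 3, and replicates 1 to 3 of TE-treated DG 3, 3 and 5. Kcne2 is also known from the choroid plexus. In those replicates, in the same order, the sum of 4 choroid plexus markers was 3242, 8989, 2337, 2578, 2166 and 2656 CPM, and it was 2006 CPM in replicate 1 of fixed frozen CA3, where Kcne2 had 0 UMIs. The call was lost without the TE-treated CA3, TE-treated DG or paraffin DG library (log2 difference −2.02 to −1.45), and the part of choroid plexus in it was not tested.

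Each condition was then taken on its own, with 4 replicates against 4. In CA1 over DG the edgeR fit called 21 of 70 members after HCl (17.0% of all genes), 14 of 64 after TE (10.1%), 9 of 49 in fixed frozen (8.14%) and 5 of 44 in paraffin sections (3.29%). In CA3 over DG it called 18 of 70 (8.99%), 10 of 65 (7.91%), 11 of 46 (9.27%) and 3 of 47 (3.21%), and in CA1 over CA3 21 of 70 (9.13%), 15 of 67 (4.40%), 13 of 46 (7.20%) and 1 of 38 (2.36%). Calls were most numerous after HCl and fewest in paraffin, for members and in CA1 over DG and CA1 over CA3 for all genes too. The 4 replicates carry the same numbers in each region, and after TE the deviations of same-numbered replicates were positively correlated. With the replicate number as a block the calls after TE rose to 23 in CA1 over DG, 20 in CA3 over DG and 23 in CA1 over CA3, and after HCl those in CA3 over DG to 26. No share of all genes is set beside these blocked counts.

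Members called in the same direction in all 4 conditions were Kcnd3, Kcnn3, Kcnq5 and Kcnh7. Kcnd3 and Kcnn3 were lower in CA1 than in DG, Kcnq5 higher in CA1 and in CA3 than in DG, and Kcnh7 higher in CA1 than in CA3. In paraffin sections the call of Kcnn3 was lost without any 1 of the 4 CA1 replicates, DG replicate 3 or DG replicate 4, and that of Kcnh7 without CA1 replicate 1. DESeq2 gave no adjusted p there for Kcnd3, Kcnn3 and Kcnq5 in CA1 over DG or for Kcnh7 in CA1 over CA3, and called Kcnq5 in CA3 over DG. In 3 of 4 conditions Kcna2, Kcnc2, Kcnmb4 and Kcnt2 were called lower and Kcnab1 higher in CA1 than in CA3, Kcnj3 and Kcnt2 lower and Kcnh7 higher in CA1 than in DG, and Kcna1 higher and Kcnc4 and Kcnj3 lower in CA3 than in DG.

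The second question was which members differed between histological conditions that differ in permeabilization, fixation or embedding. Each of these takes several treatments in the paper's protocol, such as detergent and buffer with HCl, or solvents for paraffin. That protocol also gives frozen sections, before permeabilization, a short PFA step. Fresh-frozen sections are thus not PFA-free in it, and fixation below refers to the labels of the groups. Each fit used the 24 replicates of both conditions with region as a covariate, and every condition contributes 3 libraries. Between HCl and TE in fresh-frozen sections 21 of 76 members were called, 13 higher and 8 lower after HCl, where 30.6% of all genes were called, 16.2% higher and 14.3% lower. The median log2 difference was 0.08 over members and 0.10 over all genes. With total UMIs in place of TMM scaling the split was 21 higher and 6 lower, and the median of all genes 0.24. Of the 21 calls, 13 held without each of the 6 libraries in turn, and their number ran from 17 to 22 in those fits.

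The largest of these was Kcnh3, which was higher after HCl by 1.99 ± 0.28 on the log2 scale (edgeR adjusted p = 1.3e-07), with a lowest, median and highest level of 7.86, 18.2 and 91.8 CPM after HCl and 0, 6.40 and 13.5 CPM after TE. Exons of Kcnh3 overlap those of Mcrs1 on the other strand. Kcnk4 (1.34 ± 0.31), Kcnj4 (0.72 ± 0.15), Kcnj9 (0.68 ± 0.14), Kcnn2 (0.66 ± 0.11), Kcnd3 (0.61 ± 0.16) and Kcnip2 (0.61 ± 0.11) were also higher after HCl. Lower after HCl were the BK beta subunits Kcnmb2 (−1.42 ± 0.29) and Kcnmb4 (−0.81 ± 0.11, edgeR adjusted p = 3.2e-08), Kcnd2 (−0.60 ± 0.14), Kcnip4 (−0.57 ± 0.13) and Kcnj3 (−0.50 ± 0.11). Members of 1 family so went both ways, Kcnd3 up and Kcnd2 down, and Kcnip2 up and Kcnip4 down.

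Calls between HCl and TE that did not hold without each library included those of Kcna1, Kcnh2, Kcnh4, Kcnj8, Kcnk2, Kcnt2 and Kcnv1. Kcnh2 went from 0.94 to 0.62 and 0.60 without the HCl- or TE-treated DG library, and Kcnk2 from −0.44 to −0.20 and −0.19 without the HCl- or TE-treated CA3 library, as log2 differences. Kcnv1 went from 0.56 to 0.40 without the TE-treated CA1 library. Kcna1 stood at −0.38, and at −0.33 to −0.30 without either CA1 or either DG library. Kcnt2 stood at 0.58, and at 0.56 to 0.57 without either CA3 library. Kcnh4 had 17 UMIs after HCl and 3 after TE, a CPM ratio of 5.73 with an exact 95% interval of 1.66 to 30.5 that covers counting error only, and lost its call without any of the 6 libraries. Kcnj8, a subunit of ATP-sensitive channels known from vascular mural cells, had 26 UMIs after HCl and 5 after TE, beside 4 of 7 endothelial and mural markers that were higher after HCl (median log2 difference 0.84). The call of Kcnj8 was lost without the HCl-treated CA3, HCl-treated DG or TE-treated DG library (log2 difference 1.52 to 1.88), and the part of these cells was not tested.

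Between fixed frozen and fresh-frozen sections with TE 37 of 69 members were called, 9 higher and 28 lower after fixation, where 48.7% of all genes were called, 15.8% higher and 32.9% lower. The median log2 difference was −0.53 over members and −0.39 over all genes. With the 3 members that had 0 UMIs in fixed sections (Kcna5, Kcne2 and Kcnj6) set to their bounds the member median was −0.49. Without each library in turn the number of calls ran from 30 to 32, and 25 calls held in every such fit, 6 higher and 19 lower. The most affected member was Kcnj6, a GIRK subunit at chr16:94748636-94997701 on the minus strand. It had 201 UMIs in TE-treated fresh-frozen sections and 0 in fixed frozen ones.

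Replicate by replicate, Kcnj6 had 38.3, 36.1, 21.9 and 0 CPM in CA1, 25.7, 52.5, 30.9 and 6.84 in CA3 and 22.7, 52.7, 34.3 and 12.6 in DG after HCl. After TE it had 31.0, 33.1, 10.8 and 8.09 CPM in CA1, 17.7, 26.1, 31.1 and 9.77 in CA3 and 34.6, 46.0, 28.5 and 17.0 in DG. All 12 fixed frozen replicates were at 0. Paraffin sections held 6 UMIs, in replicate 1 of CA3 (8.27 CPM) and in replicates 1 and 3 of DG (27.1 and 4.48 CPM). Against a floor of 3 counts over the 12 fixed frozen replicates, TE-treated fresh-frozen sections were at least 13.95-fold higher. Against paraffin the ratio of CPM was 4.54, with an exact 95% interval of 2.05 to 12.5 that covers counting error only. Kcnj6 shares exon bases with Gm41505 on the other strand. The other GIRK genes did not follow it, with log2 differences of −0.46 ± 0.13 for Kcnj3 and 0.93 ± 0.20 for Kcnj9. With the replicates of each library summed, the difference of Kcnj3 was not called (edgeR adjusted p = 0.103).

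Kcna1 fell by 2.06 on the log2 scale after fixation (SE 0.16, edgeR adjusted p = 4.6e-21). Fixed frozen sections had 101, 99.5, 42.6 and 18.4 CPM in CA1, 112, 205, 180 and 114 in CA3 and 52.2, 120, 120 and 9.17 in DG, all below the lowest TE-treated fresh-frozen replicate at 283 CPM. Paraffin sections had 107, 198, 113 and 55.7 CPM in CA1, 91.0, 101, 20.9 and 100 in CA3 and 74.6, 116, 67.2 and 62.2 in DG. These overlapped with fixed frozen ones, and Kcna1 was not called between them. Kcna4 was also lower after fixation (−0.99 ± 0.20), and 4 of 5 fitted Kv1 genes were called lower, where 32.9% of all genes were. Of these Kcna2 and Kcna6 lost the call without at least 1 library.

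Other voltage-gated channels below the median of all genes after fixation included Kcnh1 (−1.19 ± 0.21), Kcnc1 (−1.13 ± 0.15), Kcnh7 (−0.84 ± 0.21), Kcnd2 (−0.64 ± 0.14) and Kcnc2 (−0.58 ± 0.14). In all 14 of 23 fitted voltage-gated members were called lower and 2 higher, against 32.9% and 15.8% of all genes. Kcnh5, an EAG channel, had 58 UMIs in TE-treated fresh-frozen and 1 in fixed frozen sections, a CPM ratio of 12.1 with an exact 95% interval of 2.08 to 485. BK channels were low in both subunits, Kcnma1 at −1.16 ± 0.12 (edgeR adjusted p = 1.1e-13) and Kcnmb4 at −1.11 ± 0.16 (edgeR adjusted p = 3.7e-09). The SK channels Kcnn3 (−1.21 ± 0.34) and Kcnn2 (−0.63 ± 0.15) and the two-pore channel Kcnk9 (−1.68 ± 0.29, edgeR adjusted p = 7.1e-07) were lower too. Kcnip1 stood at −1.31 ± 0.31. Kcnj10 was at −0.63 ± 0.16 beside 6 of 8 astrocyte markers that were lower after fixation (median log2 difference −1.16), and the part of astrocytes was not tested.

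Members that rose after fixation, while the median of all genes was −0.39, were few. Kcnf1, a silent subunit at chr12:17172100-17176888 on the minus strand, rose most, by 1.99 ± 0.35 on the log2 scale (edgeR adjusted p = 1.2e-06). TE-treated sections had 6.89, 4.52, 4.05 and 0 CPM in CA1, 7.37, 7.20, 11.8 and 13.7 in CA3 and 10.2, 5.11, 1.68 and 3.40 in DG. Fixed frozen sections had 29.0, 0, 8.53 and 0 CPM in CA1, 71.3, 28.2, 47.0 and 56.8 in CA3 and 29.8, 32.6, 28.9 and 9.17 in DG. The rise was plain in CA3, where the groups did not overlap, and CA1 had replicates at 0 in both conditions. The KChIP genes Kcnip4 (1.10 ± 0.15, edgeR adjusted p = 7.0e-10) and Kcnip2 (0.77 ± 0.13, edgeR adjusted p = 2.1e-07) rose, as did Kcnj9, the silent subunit Kcnv1 (0.76 ± 0.20) and the Kv beta gene Kcnab1 (0.72 ± 0.13, edgeR adjusted p = 2.6e-06). KChIP members so moved apart, with Kcnip1 down and Kcnip2 and Kcnip4 up.

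The other 12 calls between fixed and fresh-frozen sections did not hold without each library, those of Kcna2, Kcna6, Kcnc4, Kcnd1, Kcnd3, Kcne2, Kcne4, Kcnh2, Kcnk1, Kcnk2, Kcnk3 and Kcnmb2. Kcnd3 went from 0.87 to 0.46 and 0.37 on the log2 scale without the TE-treated or fixed frozen DG library. Kcna6 went from −0.81 to −0.65 without the TE-treated DG library, and Kcnk1 from 0.44 to between 0.30 and 0.36 without the TE-treated CA3, fixed frozen CA3 or fixed frozen DG library. Calls lost without either CA1 or either CA3 library were those of Kcna2 (−0.33, then −0.32 to −0.27), Kcnk2 (−0.52, then −0.56 to −0.28) and Kcnk3 (−0.88, then −0.94 to −0.65). Kcnd1 (−1.45, then −1.68 to −1.14) and Kcnh2 (1.23, then 0.91 to 1.09) lost theirs without either CA1 or either DG library, and Kcnmb2 (−1.20, then −1.20 to −0.61) without either CA3 or either DG library. Kcnc4 (−0.53, then −0.61 to −0.52) lost its call without any of the 6. Kcne2 had 17 UMIs and then 0, which makes fresh-frozen sections at least 1.18-fold higher with a floor of 3 counts. It lost its call without the fixed frozen DG library, and without the TE-treated DG library it had too few UMIs to be fitted. Kcne4 had 29 UMIs and then 1, a CPM ratio of 6.04 with an exact 95% interval of 1.00 to 247, and lost its call without any of the 6 libraries.

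**Figure D4:**
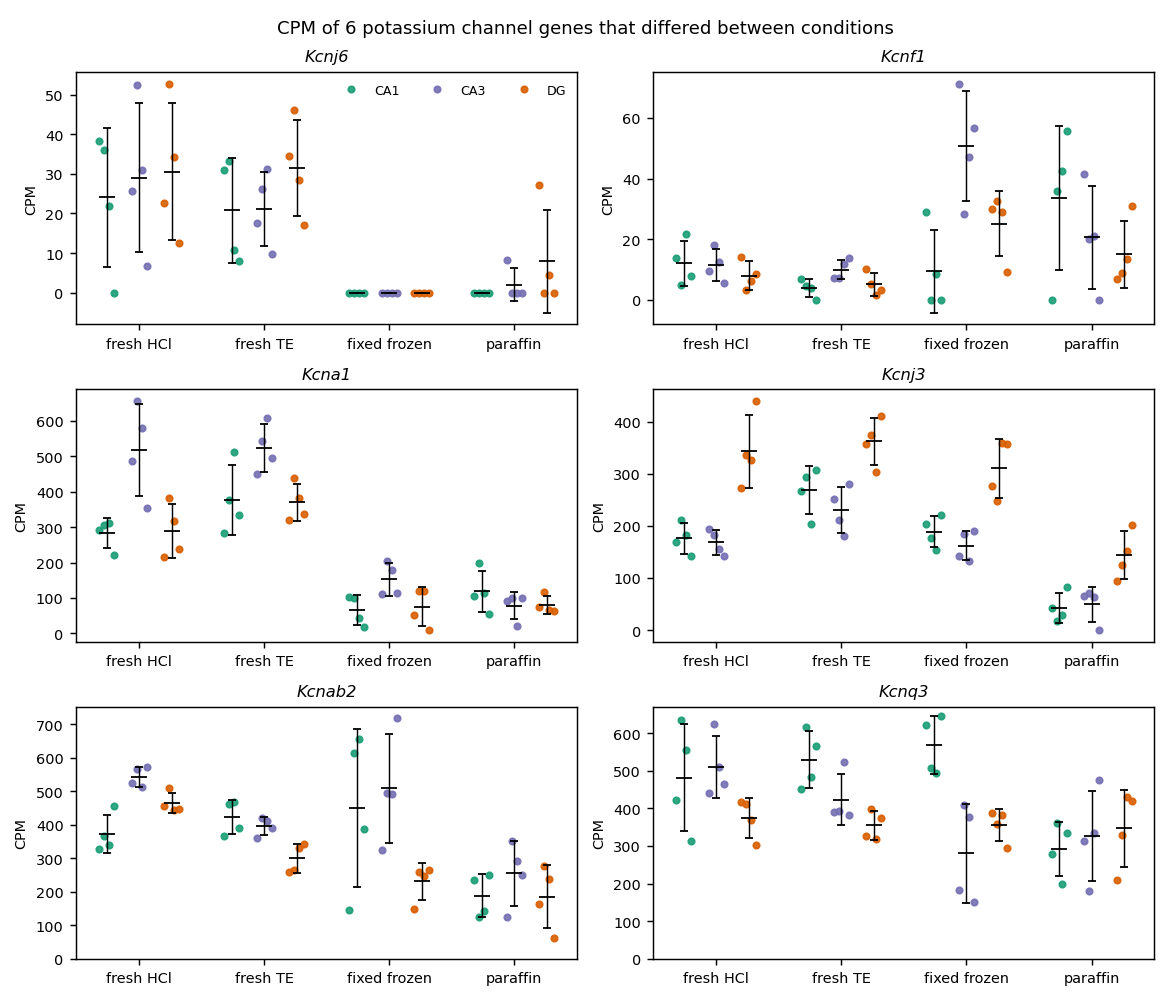
Levels in CPM of Kcnj6, Kcnf1, Kcna1, Kcnj3, Kcnab2 and Kcnq3 in the 4 replicates of each region and condition (points), with the mean and SD of the 4. Kcnj6 was at 0 in all 12 fixed frozen replicates, Kcna1 was lower in fixed frozen than in fresh-frozen sections, and Kcnj3 was lowest in paraffin sections.

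Between paraffin and fixed frozen sections 22 of 59 members were called, 4 higher and 18 lower in paraffin, where 28.0% of all genes were called, 13.7% higher and 14.4% lower. The median log2 difference was −0.33 over members and 0.05 over all genes. With DESeq2 size factors in edgeR the split was 8 higher and 12 lower, and the median of all genes moved to 0.22. Without each library in turn 13 to 18 members were called, lowest without the fixed frozen DG library, and 11 calls held in every such fit, 10 of them lower. A stricter filter on low counts (filterByExpr) left 11 calls. Kcnj3 fell by 1.52 on the log2 scale (SE 0.21, edgeR adjusted p = 5.6e-11), with a lowest, median and highest level of 133, 196 and 359 CPM in fixed frozen and 0, 68.4 and 202 CPM in paraffin sections.

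Of the Kv4 channels and their KChIP partners, Kcnd2 (−1.43 ± 0.21, edgeR adjusted p = 1.7e-09), Kcnip4 (−0.98 ± 0.20) and Kcnip2 (−0.79 ± 0.18) were lower in paraffin. Both KChIP genes were thus higher in fixed frozen than in fresh-frozen and than in paraffin sections. The same signs were seen for Kcnv1 (−1.31 ± 0.34) and Kcnab1 (−0.91 ± 0.19). Both comparisons used the same fixed frozen replicates, so that their opposite signs are not independent results. Kcng2 (−2.53 ± 0.54, edgeR adjusted p = 5.7e-05), Kcnb2 (−1.32 ± 0.26), Kcnab2 (−0.94 ± 0.17, edgeR adjusted p = 1.2e-06) and Kcnk1 (−0.84 ± 0.19) were also lower. Kcnn2 rose, by 0.88 ± 0.18 (edgeR adjusted p = 3.4e-05). This was the reverse of its fall from fresh-frozen to fixed frozen sections, with the fixed frozen replicates again in both comparisons. Kcnn2 had a lowest, median and highest level of 30.6, 134 and 221 CPM in fixed frozen and 131, 277 and 579 CPM in paraffin sections. In the same comparison 8 of 8 oligodendrocyte markers were higher in paraffin (median log2 difference 1.37) and 5 of 7 DG granule cell markers lower (median −1.74), and their part in the member differences was not tested.

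The other 11 calls in paraffin, of Kcna2, Kcna6, Kcnc2, Kcnd3, Kcnj9, Kcnk3, Kcnq3, Kcnq5, Kcns2, Kcns3 and Kcnt1, were lost without at least 1 library. Kcna6 went from 1.26 to 0.69 and 0.68 on the log2 scale without the fixed frozen or paraffin DG library. Kcnq3 went from −0.42 to between −0.53 and −0.08 without the fixed frozen CA1, fixed frozen DG or paraffin CA1 library. Kcns3 had 18 UMIs in fixed frozen and 2 in paraffin sections, a CPM ratio of 5.86 with an exact 95% interval of 1.40 to 52.1, and lost its call without any of the 6 libraries. Calls lost without either CA3 or either DG library were those of Kcna2 (−0.49, then −0.55 to −0.28), Kcnc2 (−0.67, then −0.64 to −0.44), Kcnk3 (1.28, then 1.03 to 1.38), Kcnq5 (−0.67, then −0.63 to −0.42) and Kcnt1 (1.32, then 0.92 to 1.38). Kcnj9 (−0.67, then −0.54 to −0.38) lost its call without either CA1 or either CA3 library, Kcns2 (−1.41, then −1.32 to −1.05) without either CA1 or either DG library, and Kcnd3 (−0.84, then −1.37 to −0.60) without any of 5 libraries.

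**Figure D5:**
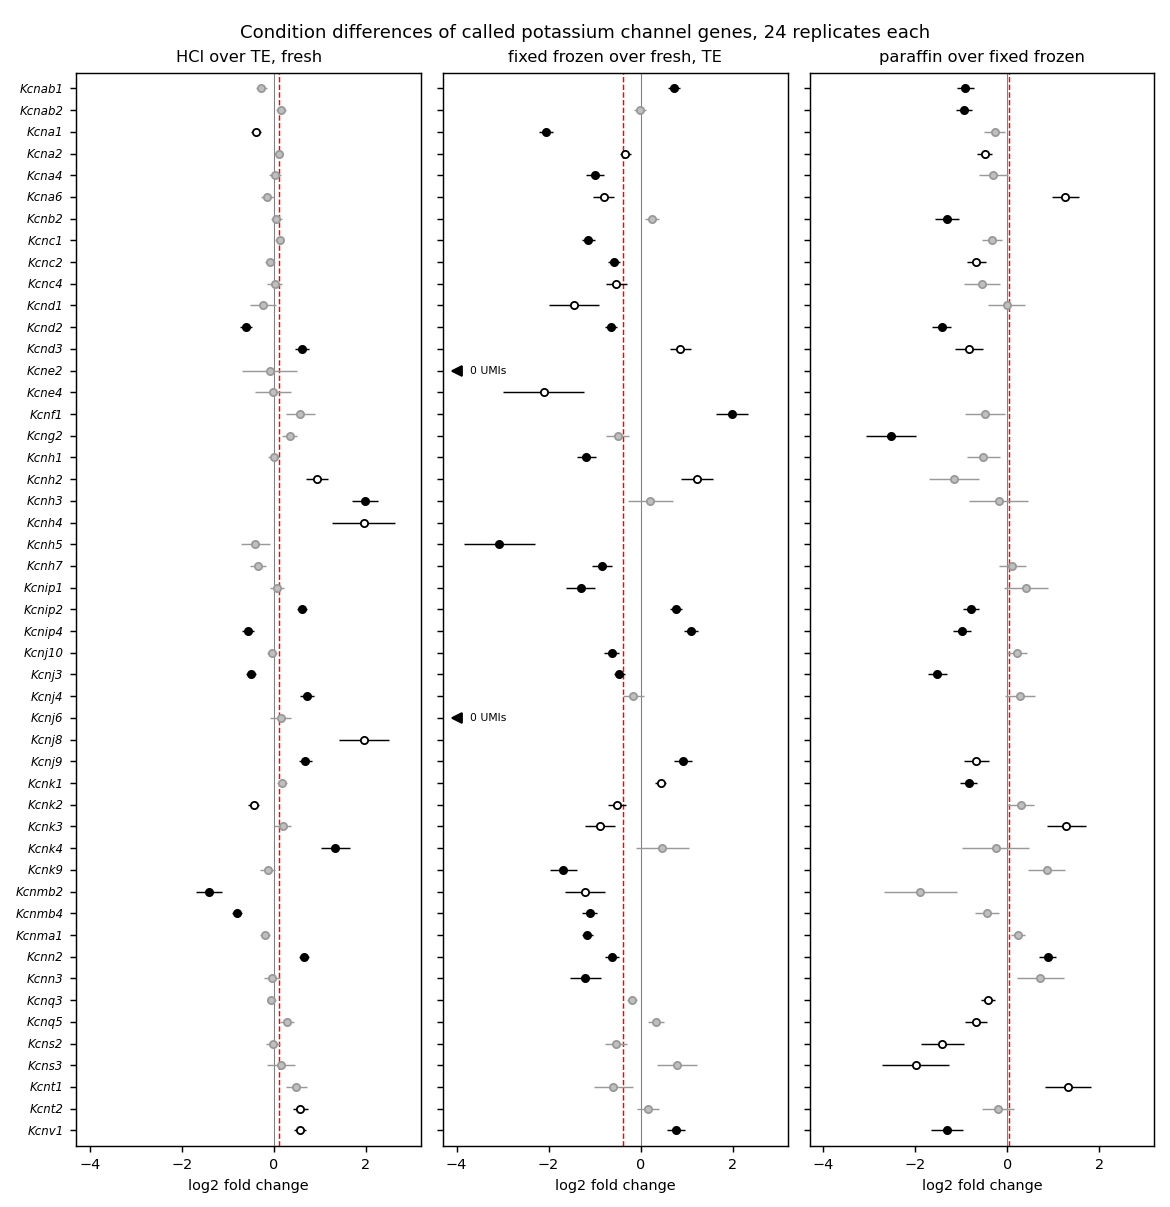
Log2 fold changes with standard errors for 49 of the 52 members called in at least 1 comparison of conditions, with the median of all genes as a red dashed line. Filled points were called and held without any 1 library, open points were called but not without at least 1 library, grey points were not called, and triangles mark called members with 0 UMIs in fixed frozen sections. Kcnj6 and Kcna1 stood on the fresh-frozen side and Kcnf1 on the fixed side, and 18 of 22 calls lay on the fixed frozen side in the comparison with paraffin.

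The third question was whether regional differences depended on the condition. A test of all 6 region by condition terms called 3 of 76 members, where 2.69% of all genes were called. Every region in a condition was a single library, so that such a difference cannot be told apart from a difference between libraries. The p-values of this test measure the spread between replicates within libraries. Kcnab2, a Kv beta subunit, came first (edgeR adjusted p = 0.0113). After HCl it had 328, 366, 340 and 456 CPM in CA1, 523, 567, 512 and 572 in CA3 and 457, 510, 445 and 448 in DG, with CA1 below CA3 without overlap (log2 difference −0.63 ± 0.15, edgeR adjusted p = 0.0047). After TE it had 366, 462, 469 and 391 CPM in CA1, 360, 419, 412 and 391 in CA3 and 260, 264, 330 and 343 in DG, with CA1 above DG without overlap (0.53 ± 0.15, edgeR adjusted p = 0.017). Fixed frozen sections had 145, 614, 656 and 387 CPM in CA1, 326, 494, 493 and 720 in CA3 and 149, 260, 247 and 266 in DG. In paraffin sections, with 235, 126, 141 and 250 CPM in CA1, 124, 353, 293 and 251 in CA3 and 163, 276, 238 and 62.2 in DG, the regions overlapped. In fixed frozen sections CA1 over DG was 1.00 ± 0.20 (edgeR adjusted p = 5.3e-05) and CA3 over DG 1.07 ± 0.20 (edgeR adjusted p = 8.4e-06). CA3 lay above DG without overlap in all but paraffin sections, whereas CA1 over DG was −0.36 after HCl and −0.18 in paraffin sections, neither called.

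For Kcnq3 (edgeR adjusted p = 0.0481), CA1 stood above CA3 in fixed frozen sections, with 623, 509, 494 and 646 CPM against 183, 409, 376 and 152 (log2 difference 0.84 ± 0.21, edgeR adjusted p = 0.0026). After HCl the values were 421, 636, 554 and 314 CPM in CA1 and 442, 624, 510 and 464 in CA3, and in paraffin 277, 360, 198 and 334 in CA1 and 314, 181, 335 and 476 in CA3. This call was lost without the filter on low counts (edgeR adjusted p = 0.0547) and with DESeq2 size factors (edgeR adjusted p = 0.404).

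Potassium channels also bind proteins that carry no Kcn symbol. Of 13 such partner genes 10 were fitted, and 7 were called in CA1 over DG, 2 higher and 5 lower, against 18.0% of all genes. Lrrc55, a BK gamma subunit, was lower in CA1 (log2 difference −2.19 ± 0.30, edgeR adjusted p = 2.4e-09), as were Lgi1 (−1.44 ± 0.12), a secreted protein tied to Kv1 complexes, Dpp6 (−0.89 ± 0.13), a Kv4 subunit, Abcc8 (−0.99 ± 0.21), the sulphonylurea receptor that joins Kcnj11, and Amigo1 (−0.78 ± 0.21), a Kv2 partner. Akap5, a scaffold of M-channels, was higher (0.82 ± 0.17). In CA3 over DG 1 was called higher and 3 lower, against 6.15% and 8.10% of all genes, and in CA1 over CA3 1 higher and 3 lower, against 4.38% and 4.86%. Between conditions 2 were higher after HCl, 1 was higher and 5 lower in fixed than in fresh-frozen sections, and 1 was higher and 3 lower in paraffin than in fixed frozen sections, 9 being fitted there. The shares of all genes called in these were 30.6%, 48.7% and 28.0%.

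Some members are neighbours in the genome. Kcnj9 and Kcnj10 lie 11892 bases apart on chromosome 1. Over all conditions Kcnj9 was lower in CA3 than in DG, while Kcnj10 was not called there (log2 difference 0.31). Within single conditions Kcnj10 was called higher in CA3 than in DG in 1 of 4. Kcna5, Kcna1 and Kcna6 lie on chromosome 6 with gaps of 104985 and 61945 bases. Over all conditions Kcna1 was called in CA3 over DG and Kcna6 in no pair of regions, and Kcna5 had 20 UMIs in all. Within single conditions Kcna6 was called in CA3 over DG in 1 of 4, higher in CA3 as Kcna1 was. Exons of 29 members overlap exons of another gene, for 27 of them on the other strand. The counting command gave no strand setting, so that reads in the shared bases could not be assigned by strand. How many UMIs of a member this touches was not tested. Among members described above such overlaps are those of Kcnh7 with Gca, Kcnq5 with Gm26580, Kcnt2 with 4930590L20Rik and Kcnd3 with Kcnd3os. Further ones are those of Kcnj3 with Gm26794, Kcnab1 with A330015K06Rik and Kcnmb4 with Kcnmb4os2.

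RefSeq promoters on GRCm38.p6, from 250 bases before to 50 after a start, were given for 68 members, 93 promoters in all. The GC box letters GGGCGG stood in 45.2% of them on either strand, against 32.7% of all 32851 promoters. TATAAA stood in 3.23% against 12.4% and CCAAT in 29.0% against 33.8%, and the median GC content was 58.8% against 52.4%. A match is a description of the letters and names no binding.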

How the data were processed

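PIC libraries of 3 regions and 4 conditions were made with CEL-seq2 chemistry, each pooling 4 barcoded replicates. The deposited values were UMI counts per gene. The authors extracted UMIs with UMI-tools 1.0.0, mapped reads with HISAT2 2.1.0 to GRCm38, assigned them with featureCounts 1.6.4 and counted distinct UMIs, and used DESeq2 1.20.0. UMIs of 6 bases allow 4096 sequences, and the highest member count was 767. The methods call the replicates biological, which mouse gave which is not given in the sources used here, and p-values measure the spread between these replicates. Replicates were grouped by their labels, which name CA3 where the design text has CA2.

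Counts were tested as deposited with edgeR 4.0.16 in R 4.3.3 (quasi-likelihood, TMM, at least 10 UMIs summed over the replicates in a fit, Benjamini-Hochberg adjustment over all genes). Regions were compared over 48 replicates with condition as a covariate and within each condition, conditions over 24 replicates with region as a covariate, and their interaction over 48. Alternatives were DESeq2 1.42.0, its size factors, total UMIs, other filters, the third region in the fit, libraries summed, a replicate block, and leaving out each replicate or library. The steps were tested on simulated data. CPM were computed from the total UMIs of the replicate. Standard errors of edgeR log2 differences were derived from the test, as the absolute difference divided by the square root of its F statistic. Intervals are exact binomial ones and, with the floor of 3 counts, cover counting error only.

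Blocked counts are given where the deviations of all same-numbered replicates were positively correlated beyond the lowest values elsewhere. These were every pair of regions after TE (0.180 to 0.338 in CA1 with CA3) and CA3 with DG after HCl (0.228 to 0.433). Every other pair of regions had a number with a correlation of 0.0854 or less. In CA1 with CA3 after TE, CA1 replicates 2 and 4 correlated best with a CA3 replicate of another number.

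The members and lists were chosen with earlier results of these data known. The rule for named members took those called in the same direction in at least 3 of 4 conditions, 15 in all, then those with the highest mean CPM overall or in their family, the largest called changes between conditions, called interactions and a list of textbook channels, 54 in total. Another 11 called members were named after their values were seen. Some members are not reported here by name, and they stay in the counts.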

Additional observations from a re-analysis of the deposited data

Results flagged for a closer look

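In a group of 4 replicates a value was listed when its gap to the nearest other replicate was a larger share of the group's range than Dixon's 95% critical value for 4 samples. Chance alone gives about 1 in 20 groups, and 18 of 174 tests were listed here. After HCl the members detected were 56 in 1 CA1 replicate and 74 in 1 CA3 replicate, Kcnh7 stood at 25.5 CPM and Kcnn3 at 59.7 CPM in DG. After TE Kcnc2 stood at 126 CPM in CA1 and Kcnq3 at 524 CPM in CA3.

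In fixed frozen sections 1 replicate stood apart for Kcnd3 (55.3 CPM) in CA1, for Kcnq5 (306 CPM) in CA3, and for Kcnt2 (66.0 CPM), Kcnc4 (78.4 CPM), Kcnab2 (149 CPM) and Kcnf1 (9.17 CPM) in DG. In paraffin sections it did for the summed member level (2903 CPM) and Kcnd3 (14.1 CPM) in CA1, for Kcnj3 (0 CPM), Kcnj6 (8.27 CPM) and Kcna1 (20.9 CPM) in CA3, and for Kcnj6 (27.1 CPM) in DG.

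The regional differences of Kcnab2 (edgeR adjusted p = 0.0113) and Kcnq3 (edgeR adjusted p = 0.0481) differed between conditions by the interaction test. They cannot be told apart from differences between single libraries.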

How the results depend on the processing

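Over the named members 4273 values were recomputed under the alternatives. Of these 3760 kept their direction and their side of the threshold, 513 kept their direction but were no longer called, and 0 reversed. Between paraffin and fixed frozen sections filterByExpr left 11 calls in place of 22. Within conditions, DESeq2 called 5 members in CA1 over CA3 (13 by edgeR), 5 in CA1 over DG (9) and 6 in CA3 over DG (11) in fixed frozen sections, where filterByExpr gave 7 in the last. DESeq2 gave an adjusted p to only 15 of 38 members in CA1 over CA3, 18 of 44 in CA1 over DG and 29 of 47 in CA3 over DG in paraffin sections, and a missing value is no lost call. It called 0 in CA1 over CA3 (1 by edgeR, 5 at an unadjusted p under 0.05 by DESeq2), 0 in CA1 over DG (5 by edgeR, 8 unadjusted by DESeq2) and 1 in CA3 over DG (3 by edgeR). There filterByExpr left 8 members to test in CA1 over DG, with 0 calls by edgeR and 1 at an unadjusted p under 0.05, and in CA3 over DG the third region in the fit or total UMIs gave 5 calls.

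Without each replicate in turn, CA1 over CA3 had 7 to 12 calls in fixed frozen, 15 to 22 after HCl, 10 to 14 after TE and 0 to 1 in paraffin sections. CA1 over DG had 5 to 9, 19 to 24, 11 to 16 and 2 to 5 in the same order. CA3 over DG had 7 to 12, 10 to 18 (lowest without DG replicate 3), 5 to 9 (lowest without DG replicate 2) and 1 to 5. Without each library, calls ran from 22 to 27 in CA1 over CA3, 21 to 31 in CA1 over DG, 21 to 32 in CA3 over DG, 17 to 22 in HCl over TE, 30 to 32 in fixed over fresh-frozen and 13 to 18 in paraffin over fixed frozen.

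With the replicate block, TE-treated sections had 23 calls in CA1 over CA3, 23 in CA1 over DG and 20 in CA3 over DG, in place of 15, 14 and 10. Outside TE and CA3 with DG after HCl, at least 1 pair of same-numbered replicates had a correlation of 0.0854 or less. In 35 of 48 comparisons of a numbered replicate with those of another region, over all conditions, it correlated best with its own number. Under the block Kcnh4 in CA3 over DG (edgeR adjusted p = 0.121), Kcnt2 in CA1 over CA3 in fixed frozen (0.0632) and Kcnk9 in CA3 over DG in paraffin sections (0.0503) were no longer called. The cause of these changes was not tested.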
